A study of Mus musculus with 4 samples.

Results

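Mouse gene catalogues hold many loci that prediction pipelines found and that carry a placeholder name of Gm and a number instead of a gene name. In the expected-count table of this study, 1236 of 24411 genes bore such a name. The 162 gene models described here are those whose expected counts, summed over all 4 libraries, came to at least 60, with 2 models left out by the rule. The members were therefore chosen by their level over both genotypes together, and a model high in 1 genotype alone could pass. Examples are Gm15612, Gm4890 and Gm11423, which passed mainly through their Dis3-/- counts, and Gm16845, which passed mainly through its wild-type counts. The hematopoietic stem cells came from C57BL/6 marrow of 2 genotypes, wild type (Dis3fl/fl, no Cre) and Dis3-/- (Dis3fl/fl;Mx-Cre), with 2 libraries each. In both groups the marrow had been grafted into lethally irradiated CD45.1 recipients, and 300 µg of pIpC was injected on days 0 and 2 to switch on Cre. Both groups thus carry the floxed Dis3 allele, and the shared protocol text gives them the same grafting and the same pIpC, a double-stranded RNA mimic that induces interferon. The Mx promoter responds to interferon in many cell types, so deletion was not limited to stem cells, and the labels give no mouse ages. On day 4 L-ESLAM cells (lineage-negative, EPCR-positive, CD150-positive, CD48-negative) were sorted, 100 cells to a library. The libraries were made by RamDA-seq, a method that primes full-length total RNA with not-so-random primers.

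Dis3 is a catalytic subunit of the RNA exosome, a ring-shaped complex that eats RNA back from the 3' end. In the nucleus the exosome is known for removing short-lived noncoding transcripts, among them RNAs that start at promoters and run in the direction opposite to the gene, antisense RNAs and processing leftovers. Adaptor proteins such as Rbm7 and the helicase Mtrex (Skiv2l2 in these files) bring such RNAs to it. The Gm-number models hold several unlike kinds of locus: long noncoding RNAs, processed copies of coding genes that lost their introns (pseudogenes), members of young gene families such as zinc finger and interferon-inducible GTPase genes, and coding genes that only later received a proper name.

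Depth ranged from 6085367 to 6818535 expected counts per library, with 14785 to 14874 genes above 0. Levels are given as CPM, computed from the expected counts on scaled library sizes, and ± after a level is the SD over the 2 libraries of a genotype. Dis3 itself stood at 55.9 and 53.3 CPM in wild-type and at 23.6 and 30.2 CPM in Dis3-/- libraries (log2 fold change -1.02 ± 0.14, SE; edgeR adjusted p = 0.000258). Of 13 genes of the exosome core and its nucleases 3 rose and 1, Dis3, fell, and of 11 nuclear adaptor genes 2 rose (median log2 fold changes 0.33 and 0.11). The 9 stem cell marker genes summed to 3233 and 2868 CPM in wild-type and to 2321 and 2295 CPM in Dis3-/- libraries. Summed markers of other cell types were 64.1 to 87.8 against 66.1 to 82.1 CPM for T and NK cells (Cd3e and Cd3g at 0), 14.8 to 16.2 against 11.8 to 13.9 CPM for B cells (Ms4a1 at 0) and 29.5 to 35.2 against 21.1 to 23.1 CPM for granulocytes (Elane at 0 in 3 libraries). They were 41.1 to 52.7 against 31.1 to 33.3 CPM for monocytes (Ly6c2 at 0), 64.9 to 79.9 against 34.8 to 65.5 CPM for megakaryocytes and 44.1 to 46.5 against 38.6 to 50.7 CPM for erythroid cells. Mast cell markers stood at 7.35 to 12.9 against 1.72 to 5.22 CPM (Mcpt8 at 0), and endothelial and stromal markers at 135 to 144 against 74.3 to 81.3 CPM. Single genes carried most of several sums: Nkg7 for T and NK cells, Cd79b for B cells, Prtn3 for granulocytes and Hbb-bt for erythroid cells. Hbb-bt held 27.7 and 29.5 against 43.4 and 31.2 CPM and was not called. The erythroid gene Gata1 fell from 16.0 and 10.8 to 3.70 and 2.97 CPM (log2 fold change -2.01 ± 0.32, edgeR adjusted p = 0.000664). Pecam1 and Pdgfrb made up nearly all of the endothelial and stromal sum. The part of such marker differences in the values below was not tested, and in bulk libraries fewer cells of a type and less RNA per cell cannot be told apart.

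Of the 162 models 161 passed the filter on low counts. In Dis3-/- libraries 17 of them rose, 7 fell and 137 did not pass the test, at an edgeR adjusted p under 0.05. The called share was 14.9% of members, with 10.6% higher and 4.35% lower, where 23% of all 12244 tested genes were called (12.7% higher and 10.2% lower). Log2 fold changes of the members ranged from -1.86 to 2.52 with a median of 0.0756, beside -0.0027 for all tested genes. On deposited TPM values the all-gene median was -0.107 or -0.112, depending on the pseudocount, and the members' median fell below 0 with it, to -0.0562 or -0.0634. On log2(TPM + 1), 16 members rose and 13 fell, and higher calls made up 55.2% of the members' calls and 42.1% of all calls, against 70.8% and 55.5% on counts. The libraries did not overlap between genotypes for 55 members that were higher and 36 that were lower in Dis3-/- cells, beside 31.9% and 30.5% of all tested genes (62.4% in either direction). The 162 models together held 4827 and 4923 CPM in wild-type and 4976 and 4717 CPM in Dis3-/- libraries, so their summed level overlapped between genotypes. The remaining model, the pseudogene Gm5512, was not tested and held 0.745, 8.89, 0 and 0.813 CPM, most of it in wild-type replicate 2.

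Most members were low, with a median of 8.88 CPM over a range of 2.35 to 499.9 CPM, and the share called was smallest in the lowest band for members and for all genes. Among members under 5 CPM 8.33% were called, and 11.3% of all genes with the same minimum total. At 5 to 20 CPM the shares were 16.7% and 13.8%, at 20 to 100 CPM 13.8% and 25.1%, and from 100 CPM upward 33.3% (4 of 12 members) and 38.8%. The 451 RIKEN cDNA models with the same minimum total, another class of placeholder names, had 71 higher and 28 lower (22%), and their median was 0.0817. The models nearest the minimum total, Gm614 (60 counts), Gm10432 (60.2), Gm10658 (60.3) and Gm16062 (60.6) inside and Gm12359 (59.96), Gm5124 (59), Gm5431 (58.7) and Gm15694 (58.2) outside, were not called.

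**Figure D1:**
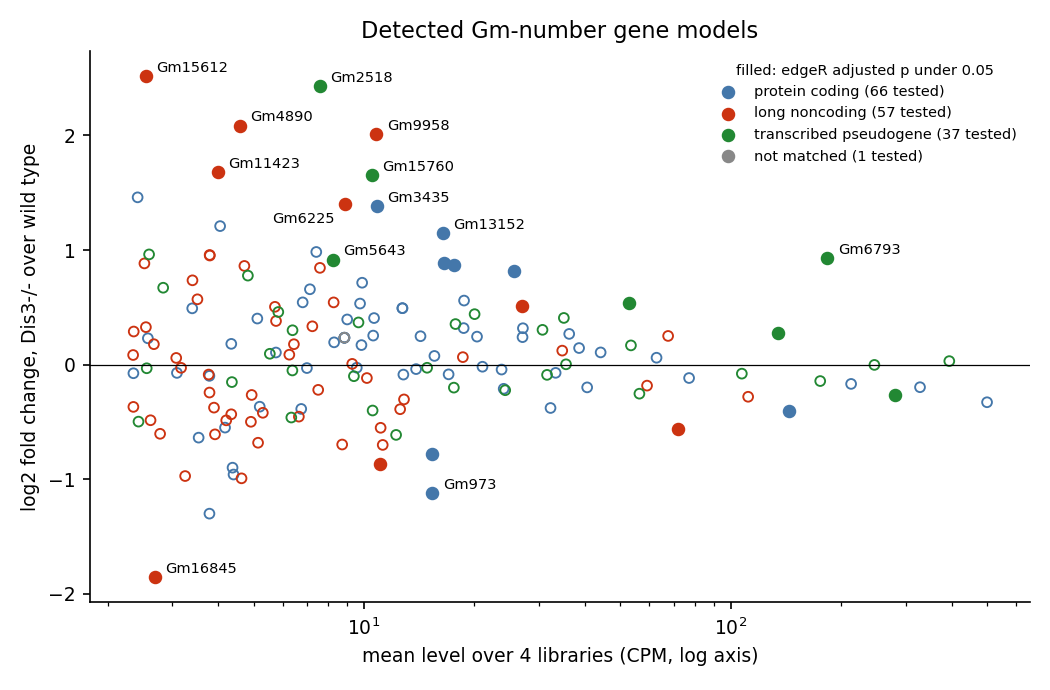
Each point is 1 of the 161 tested gene models, with its mean level over the 4 libraries (CPM, log axis) and its log2 fold change, Dis3-/- over wild type; colours give the annotated class and filled points passed the test. The 11 models with a log2 fold change above 1 lie between 2.41 and 16.4 CPM, and the 12 models above 100 CPM lie between -0.40 and 0.93.

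By RefSeq class (GRCm38.p6, the mm10 assembly) 66 models were protein coding, 57 long noncoding and 38 transcribed pseudogenes, and 1 was not matched. Coding models had 5 higher and 3 lower (12.1% called) with a median log2 fold change of 0.157. Long noncoding models had 6 higher and 3 lower (15.8% called) with a median of -0.0283. Of 37 tested pseudogenes 6 rose and 1 fell (18.9% called, median 0.0304). Over all tested genes 23% were called, 12.7% higher and 10.2% lower, more than in any class. Their median level was 31.6 CPM, beside 11.8, 4.94 and 14.9 CPM for coding, long noncoding and pseudogene models. Among all genes the called share rises with level. Position was judged only against the other genes counted in these data. Of the models, 76 shared no bases with such a gene and had no divergent neighbour, and 7 of the 75 tested rose while 2 fell. Another 29 started within 1 kb of the start of a gene on the opposite strand (5 higher, 1 lower), and 28 shared bases with a gene on the other strand (4 higher, 2 lower). A further 22 lay on the same strand as a gene they share bases with (0 higher, 2 lower), and 6 overlapped a gene but had no strand in the sources used here (1 higher). In this order of position, the called shares were 12%, 20.7%, 21.4%, 9.09% and 16.7%, each below that of all tested genes. Median levels, in the same order, were 12.7, 4.58, 8.86, 13.6 and 7.12 CPM, beside 31.6 CPM for all tested genes. Among all genes with the same minimum total, 11.3% were called under 5 CPM and 13.8% at 5 to 20 CPM. Beside genes of like level, 20.7%, 21.4% and 16.7% thus lay above, and 12% and 9.09% below. No source used here says whether reads were counted by strand, and where it was not done, reads of a model and of a gene overlapping it cannot be told apart.

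**Figure D2:**
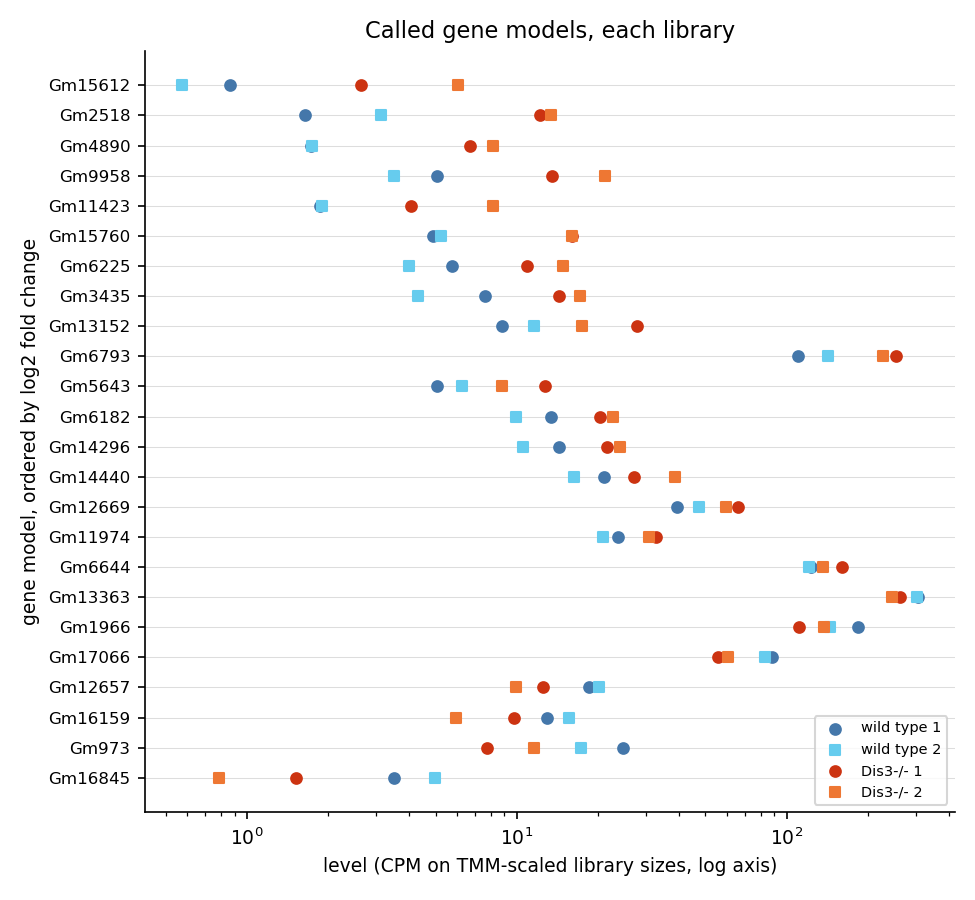
Levels in each library (CPM, log axis) of the 24 called gene models, ordered by log2 fold change from the highest at the top. In every one of the 24 both Dis3-/- points lie on the same side of both wild-type points.

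Gene models that start within 1 kb of another gene's start on the opposite strand were the position group with the highest median. It was 0.327 over 29 models, with 18 above 0. The other gene is coding except beside Gm20324 and Gm7120. Some pairs run away from each other, while in others each start lies within the other gene, so that their first bases overlap. That overlap was 861 bases for Gm11696 and Gna13, 394 for Gm16845 and Zfp653 and 35 for Gm10785 and Donson. Some pairs also share exon bases, as do Gm16861 and Nudt16l1 (560). The summed level of the 29 models was 147 and 141 CPM in wild-type and 179 and 191 CPM in Dis3-/- libraries, and so did not overlap. Of the 29, 5 rose and 1 fell, and the libraries did not overlap for 15 that were higher and 3 that were lower. Over all tested genes 12.7% rose and 10.2% fell, and 31.9% and 30.5% did not overlap. Leaving out 1 library at a time gave 3 to 6 that rose and 0 or 1 that fell, and the median was 0.57 when wild-type replicate 1 was omitted and 0.20 on log2(TPM + 1). The promoter windows of 3 of them are shown. Among models with a readable window, no bases shared with the partner and starts at most 250 bases apart, these 3 had the largest log2 fold changes. In each, both Dis3-/- libraries were more than 2 times as high as either wild-type library, and the coding partner was not called on counts. That also held for Gm15760, which shares 1 base with its partner Abcf3. Each window runs from 250 bases before to 50 bases after the model's start, 5' to 3' on the strand of the model, from RefSeq on GRCm38.p6. Capitals mark the bases that lie between the start of the model and that of its partner. They are chr8:79294828-79295127 (plus strand; partner Mmaa), chr11:82780993-82781292 (minus strand; partner Lig3) and chr9:48495093-48495392 (plus strand; partner Rbm7).
Gm4890: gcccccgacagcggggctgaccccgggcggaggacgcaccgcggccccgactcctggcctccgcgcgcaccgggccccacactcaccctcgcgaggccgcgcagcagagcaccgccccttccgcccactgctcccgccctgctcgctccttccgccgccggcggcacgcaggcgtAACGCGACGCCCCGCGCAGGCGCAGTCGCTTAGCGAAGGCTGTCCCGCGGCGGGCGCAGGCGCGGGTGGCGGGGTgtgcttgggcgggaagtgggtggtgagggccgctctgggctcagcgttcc
Gm11423: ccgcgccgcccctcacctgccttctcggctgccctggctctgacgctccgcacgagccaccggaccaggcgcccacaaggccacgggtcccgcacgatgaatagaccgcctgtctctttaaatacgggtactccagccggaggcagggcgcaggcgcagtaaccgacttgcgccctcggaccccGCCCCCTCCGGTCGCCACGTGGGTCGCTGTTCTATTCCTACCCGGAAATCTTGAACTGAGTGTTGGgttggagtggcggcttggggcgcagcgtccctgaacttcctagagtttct
Gm5617: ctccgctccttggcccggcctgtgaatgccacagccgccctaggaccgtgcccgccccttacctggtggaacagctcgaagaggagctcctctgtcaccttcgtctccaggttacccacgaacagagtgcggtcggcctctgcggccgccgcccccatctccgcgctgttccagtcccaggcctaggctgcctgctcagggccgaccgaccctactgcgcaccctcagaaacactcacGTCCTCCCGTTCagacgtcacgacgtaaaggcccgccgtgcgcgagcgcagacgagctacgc

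The starts lie 76 bases apart for Gm4890 and Mmaa, 67 for Gm11423 and Lig3 and 13 for Gm5617 and Rbm7, so that 1 short stretch faces both directions. These windows are rich in G and C, 78%, 65.3% and 67% of bases. The letters GGGCGG, a GC box searched on both strands, occurred 5, 2 and 3 times in them. Of 28 windows of divergent members that could be read, 24 (85.7%) held GGGCGG, beside 41.3% of all 109 windows of members and 35.7% of 32851 windows of all genes. The letters TATAAA occurred in 3.57% of divergent windows, 9.17% of all members' windows and 13.6% of all windows. A match is only a description of the letters.

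Gm4890 (long noncoding; chromosome 8, 79295078 to 79307774) stood at 1.73 and 1.75 CPM in wild-type and at 6.73 and 8.13 CPM in Dis3-/- libraries. Both Dis3-/- libraries were well above both wild-type libraries, which nearly coincided. It rose by a log2 fold change of 2.09 ± 0.41 (edgeR adjusted p = 0.00264). Mmaa, which encodes a protein of vitamin B12 metabolism, held 9.08 and 9.69 against 7.91 and 12.4 CPM (0.12 ± 0.28, edgeR adjusted p = 0.807), and its genotypes overlapped.

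Gm15760, annotated as a transcribed pseudogene (chromosome 16, 20545112 to 20548556), begins at the start of Abcf3, which encodes a protein of the ABC transporter family without membrane segments. It stood at 4.90 and 5.24 CPM in wild-type and at 16.0 and 15.9 CPM in Dis3-/- libraries, a narrow spread within either genotype. The rise was 1.65 ± 0.25 (edgeR adjusted p = 0.000454). Abcf3 held 37.0 and 41.0 against 40.4 and 45.2 CPM (0.14 ± 0.13, edgeR adjusted p = 0.501).

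Gm15612 (long noncoding; chromosome 6, 88842854 to 88847274) had the widest rise of all members, from a low base. It stood at 0.864 and 0.575 CPM in wild-type and at 2.64 and 6.07 CPM in Dis3-/- libraries, which differ from each other more than the wild-type libraries do. The log2 fold change of 2.52 ± 0.62 (edgeR adjusted p = 0.00962) was 1.81 and lost its call when Dis3-/- replicate 2 was omitted (edgeR adjusted p = 0.216), and was 1.35 on log2(TPM + 1), which understates low genes. Its neighbour Abtb1, 479 bases away and encoding a BTB domain protein, fell in the same libraries, from 29.5 and 31.3 to 16.5 and 19.9 CPM (-0.74 ± 0.17, edgeR adjusted p = 0.00625). Gm15612 also lies antisense within Podxl2, which held at most 0.724 CPM in any library.

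Gm11423 (long noncoding; chromosome 11, 82779601 to 82781042) stood at 1.87 and 1.91 CPM in wild-type and at 4.04 and 8.13 CPM in Dis3-/- libraries. The genotypes did not overlap, and Dis3-/- replicate 2 was the highest. Its change of 1.68 ± 0.47 (edgeR adjusted p = 0.0199) was not called by DESeq2 (adjusted p = 0.0632). With Dis3-/- replicate 2 left out it was 1.09 (edgeR adjusted p = 0.311). Omitting either wild-type library gave 1.67 or 1.69 (edgeR adjusted p = 0.0693 and 0.0561). Lig3, the gene of DNA ligase III, was even across libraries at 142, 140, 142 and 137 CPM (-0.01 ± 0.08, edgeR adjusted p = 0.942).

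Gm5617, a small coding model (chromosome 9, 48495343 to 48495975), starts 13 bases from Rbm7, whose protein hands nuclear RNA to the exosome. It held 1.44 and 1.11 against 3.20 and 3.91 CPM, without overlap, but did not pass the test on counts (1.46 ± 0.53, edgeR adjusted p = 0.0617). It passed on TPM values (1.25 on log2(TPM + 1), limma adjusted p = 0.01). Rbm7 stood at 75.8 and 73.8 against 67.3 and 64.4 CPM (-0.18 ± 0.10, edgeR adjusted p = 0.216) and passed as lower on log2(TPM + 1) (-0.30, limma adjusted p = 0.0348).

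The steepest fall of all members was also in this group. Gm16845 (long noncoding; chromosome 9, 22071002 to 22086131) starts 393 bases from the start of the zinc finger gene Zfp653, head to head with it, and runs antisense through Ecsit, a gene of innate immune signalling and mitochondrial complex I assembly. It stood at 3.50 and 4.97 CPM in wild-type and at 1.51 and 0.79 CPM in Dis3-/- libraries. Its value of -1.86 ± 0.55 (edgeR adjusted p = 0.0251) was not called by DESeq2 (adjusted p = 0.0947). Omitting wild-type replicate 1, its replicate 2 or the second Dis3-/- library gave -2.09, -1.59 and -1.45 (edgeR adjusted p = 0.051, 0.178 and 0.177). Zfp653 held 12.6 and 9.37 against 9.76 and 10.2 CPM, and Ecsit 18.4 and 14.1 against 25.6 and 18.0 CPM (0.41 ± 0.22, edgeR adjusted p = 0.19).

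The pairs of a divergent model and a tested coding partner number 28. They include Gm16712 and Gm20604, counted above under same strand, and leave out Gm3435, Gm20324 and Gm7120. Over these pairs the median log2 fold change was 0.308 for the models and -0.00985 for the partners. In these pairs 5 models and 6 partners were called. Of the 5 called models 4 had a partner that was not called, 1 (Gm15612) had a partner called in the opposite direction, and 0 had a partner called in the same direction. The other called partners, named here after their values were seen, stood beside models that were not called. They were Donson (0.82), Prmt1 (0.70) and Ubr7 (0.41), higher, beside Gm10785 (-0.09), Gm15545 (0.74) and Gm20604 (0.25), and Irf2 (-0.46) and Flcn (-0.35), lower, beside Gm16675 (0.06) and Gm16062 (-0.37).

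**Figure D3:**
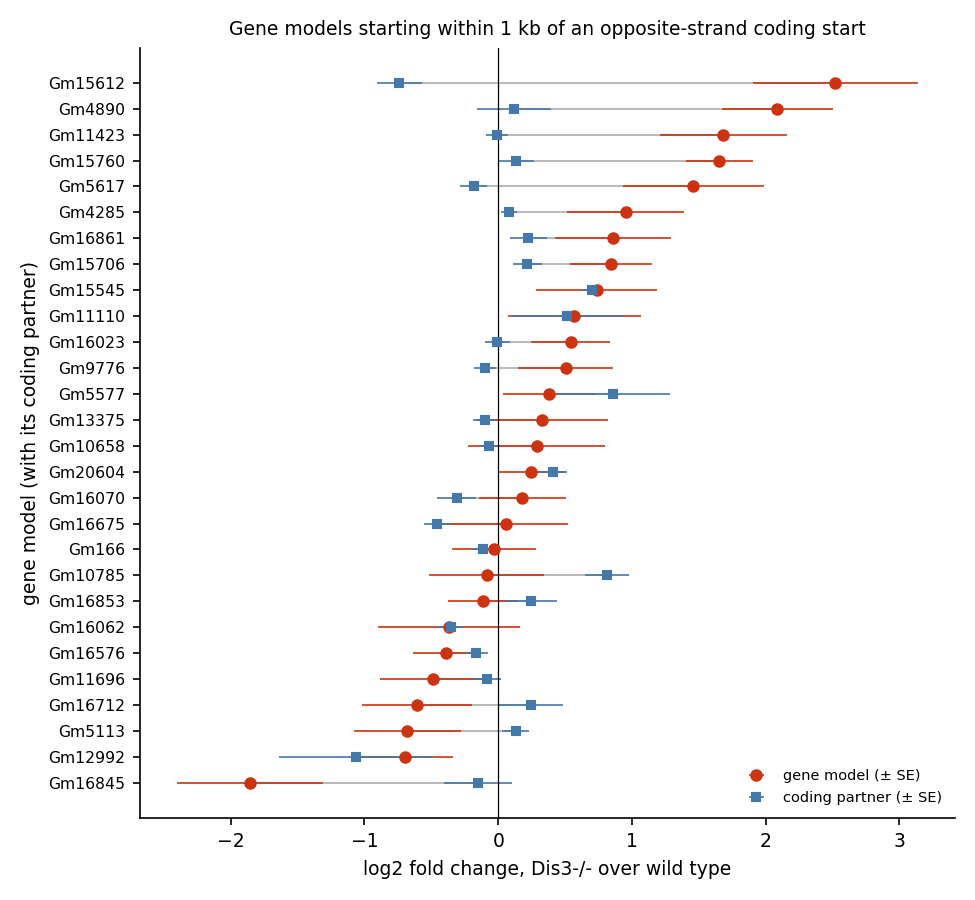
Log2 fold change, Dis3-/- over wild type, of 28 gene models that start within 1 kb of a coding gene on the opposite strand (circles) and of that coding partner (squares); bars are ± SE and grey lines join the pair. The 5 models at the top lie between 1.46 and 2.52, and their partners between -0.74 and 0.14.

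Among models that lie inside or across other genes, Gm9958 and Gm2518 rose and Gm17066 fell, while the gene each lies in did not pass the test. Gm9958 (long noncoding; chromosome 5, 90366997 to 90368488) lies on the other strand within Ankrd17, which encodes an ankyrin repeat protein. It stood at 5.04 and 3.49 CPM in wild-type and at 13.5 and 21.3 CPM in Dis3-/- libraries. The lower Dis3-/- library exceeded the higher wild-type library more than 2-fold. The log2 fold change was 2.02 ± 0.30 (edgeR adjusted p = 0.000407). Ankrd17, at 518 and 533 against 577 and 552 CPM, had 0.10 ± 0.07 (edgeR adjusted p = 0.289). The pair shares no exon bases in the annotation.

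Gm2518, a transcribed pseudogene (chromosome 19, 8774485 to 8776962), lies within the span of Taf6l, which encodes a subunit of a histone acetyltransferase complex. Its strand is not known here. It stood at 1.64 and 3.14 CPM in wild-type and at 12.2 and 13.4 CPM in Dis3-/- libraries, both far above either wild-type library. This rise of 2.43 ± 0.36 had an edgeR adjusted p of 0.000355. Taf6l held 9.75 and 11.5 against 13.1 and 16.6 CPM, also without overlap (0.49 ± 0.23, edgeR adjusted p = 0.143).

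Gm6225 (long noncoding; chromosome 18, 3336416 to 3366863) shares its first bases, on the other strand, with Crem, a gene of the cAMP response. It stood at 5.76 and 3.97 against 10.9 and 14.9 CPM, without overlap (1.40 ± 0.30, edgeR adjusted p = 0.00446). Without Dis3-/- replicate 2 it was 1.16 (edgeR adjusted p = 0.0501). Crem went the other way at 10.2 and 12.1 against 7.91 and 5.47 CPM (-0.74 ± 0.29, edgeR adjusted p = 0.0785), a value past the threshold without Dis3-/- replicate 1 (-1.02, edgeR adjusted p = 0.0463).

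Gm17066 (long noncoding; chromosome 14, 105109390 to 105114676) lies on the strand of the RNA-binding protein gene Rbm26 and shares 413 exon bases with it. It stood at 88.4 and 82.9 CPM in wild-type and at 55.5 and 60.5 CPM in Dis3-/- libraries. The fall of -0.56 ± 0.11 (edgeR adjusted p = 0.00186) stands beside 0.03 ± 0.09 for Rbm26 (edgeR adjusted p = 0.857), which held 126 and 115 against 131 and 115 CPM. RSEM divides reads of the shared bases by estimate.

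Gm16159 (long noncoding; chromosome 8, 25548673 to 25556083) runs antisense to the growth factor receptor gene Fgfr1 and fell together with it. It stood at 13.0 and 15.6 against 9.76 and 5.94 CPM (-0.86 ± 0.27, edgeR adjusted p = 0.035), and Fgfr1 at 73.2 and 61.3 against 46.6 and 34.7 CPM (-0.73 ± 0.15, edgeR adjusted p = 0.00285). Both are lowest in Dis3-/- replicate 2. Gm16159 was not called by DESeq2 (adjusted p = 0.123). Omitting replicate 2 of Dis3-/- gave -0.54 and omitting replicate 2 of wild type -0.73 (edgeR adjusted p = 0.234 and 0.149). Gm11974, now named Snhg15, is a host gene of small nucleolar RNA and lies apart from the other genes counted in these data. It stood at 23.6 and 20.8 against 32.7 and 30.8 CPM (0.51 ± 0.16, edgeR adjusted p = 0.0299). Its call ended with DESeq2 (adjusted p = 0.152). By edgeR it ended when wild-type replicate 2 (0.42), Dis3-/- replicate 1 (0.47) or Dis3-/- replicate 2 (0.56) was omitted, with adjusted p values of 0.149, 0.0997 and 0.0634.

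Processed pseudogenes held the 5 highest levels per length, and their values rest on how reads were divided among near-identical copies. To show this, the transcript of each model was cut into all stretches of 50 bases, and the share of these also found in another gene was counted. That share had a median of 77.3% over the tested pseudogenes and of 6.18% over the long noncoding models. Per length, Gm12191 had the highest level of all members, 2636 TPM on average, and Gm15772 came next at 1465 TPM. Gm12191 resembles the ribosomal protein gene Rpl30 (83.3% of its 50-base stretches) and lies within Cnot6 on chromosome 11 (49678620 to 49679143). It held 370 and 411 against 396 and 401 CPM (0.03 ± 0.07, edgeR adjusted p = 0.813), while Rpl30 itself held 36.3 to 55.5 CPM. Gm15772 (chromosome 5, 3236390 to 3236928) resembles Rpl26 (74.3%) and held 240 and 253 against 258 and 234 CPM. Rpl26, a ribosomal protein gene that every cell uses, was listed at 0 in 3 libraries and at 2.66 CPM in wild-type replicate 2. In both pairs the copy thus took most of the reads, in all 4 libraries.

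Gm6793 was the most abundant of the models that rose. This pseudogene (chromosome 8, 112013433 to 112015036) resembles Hnrnpa3 (73.0%), the gene of an RNA-binding protein of spliced and unspliced nuclear RNA. It also shares 108 exon bases on the other strand with Terf2ip, a gene of a telomere protein. It stood at 110 and 143 CPM in wild-type and at 255 and 226 CPM in Dis3-/- libraries, with no overlap (0.93 ± 0.11, edgeR adjusted p = 7.07e-05). Hnrnpa3 held 375 and 349 against 433 and 441 CPM (0.27 ± 0.07, edgeR adjusted p = 0.0144). Gm6793 took 22.7% and 29.0% of the pair's reads in the wild-type libraries, and 37.0% and 33.9% in those of Dis3-/- cells. Summed, the pair rose by 0.47 (edgeR adjusted p = 0.000148). Terf2ip was at 29.4 and 33.7 against 27.3 and 23.1 CPM (-0.32 ± 0.16, edgeR adjusted p = 0.163).

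Of the other pseudogenes, Gm2518 and Gm15760 are described above, and 3 more rose. Gm12669 (chromosome 4, 91805550 to 91806555), a copy of the glutaredoxin gene Glrx3, held 39.2 and 47.1 against 65.7 and 59.4 CPM (0.54 ± 0.13, edgeR adjusted p = 0.00816), and lost its call when wild-type replicate 1 was omitted (0.41, edgeR adjusted p = 0.0693). Glrx3 held 28.8 and 25.9 against 34.8 and 34.9 CPM, and the summed pair rose by 0.47 (edgeR adjusted p = 0.00384). Gm6644 resembles the aldose reductase gene Akr1b3, which was listed at 0 in 3 libraries and at 3.86 CPM in Dis3-/- replicate 2. It held 123 and 121 against 160 and 136 CPM (0.28 ± 0.09, edgeR adjusted p = 0.0488), a call that ended under 8 of the 12 alternatives, with edgeR adjusted p values up to 0.353 (0.16 with Dis3-/- replicate 1 omitted, and 0.30 or 0.26 with the first or the second wild-type library omitted). Gm5643, on chromosome X (142297505 to 142299237), held 5.08 and 6.27 against 12.7 and 8.84 CPM (0.92 ± 0.30, edgeR adjusted p = 0.0431). Its call ended under 7 of the 12 alternatives, among them omitting replicate 1 of Dis3-/- (0.65, edgeR adjusted p = 0.301) or either wild-type library (0.76 and 1.09).

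In 2 cases the copy was called lower and the gene it resembles was not called. Gm13363 (chromosome 2, 19992266 to 19995055) resembles the phosphatase gene Ptp4a1 (68.3%). It held 306 and 305 against 263 and 245 CPM (-0.27 ± 0.08, edgeR adjusted p = 0.0203), while Ptp4a1 held 42.0 and 57.6 against 63.5 and 52.5 CPM. The summed pair had -0.19 (edgeR adjusted p = 0.0833). The call also ended when either wild-type library (-0.26 and -0.27) or replicate 2 of Dis3-/- (-0.22) was omitted, with edgeR adjusted p values of 0.0891, 0.0582 and 0.102. Etl4, within which it lies, was low at 3.89 and 3.33 against 1.35 and 1.09 CPM (-1.56 ± 0.53, edgeR adjusted p = 0.0485; not called without any 1 of the 4 libraries, -1.70 to -1.41, nor by DESeq2).

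Gm12657, annotated as coding (chromosome 4, 94593650 to 94600319), resembles the histone H3.3 gene H3f3a (58.0%) and lies across Plaa on the other strand. It stood at 18.5 and 20.2 against 12.5 and 9.94 CPM (-0.78 ± 0.21, edgeR adjusted p = 0.0152). H3f3a held 498 and 506 against 539 and 494 CPM (0.04 ± 0.07, edgeR adjusted p = 0.718), and the summed pair had 0.02 (edgeR adjusted p = 0.88). The model took 1.97% to 3.84% of the pair's reads. DESeq2 did not call it (adjusted p = 0.0774), nor did edgeR when wild-type replicate 2 (-0.72) or Dis3-/- replicate 2 (-0.63) was omitted (adjusted p = 0.062 and 0.0935). Plaa held 80.8 and 89.1 against 92.6 and 87.9 CPM.

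**Figure D4:**
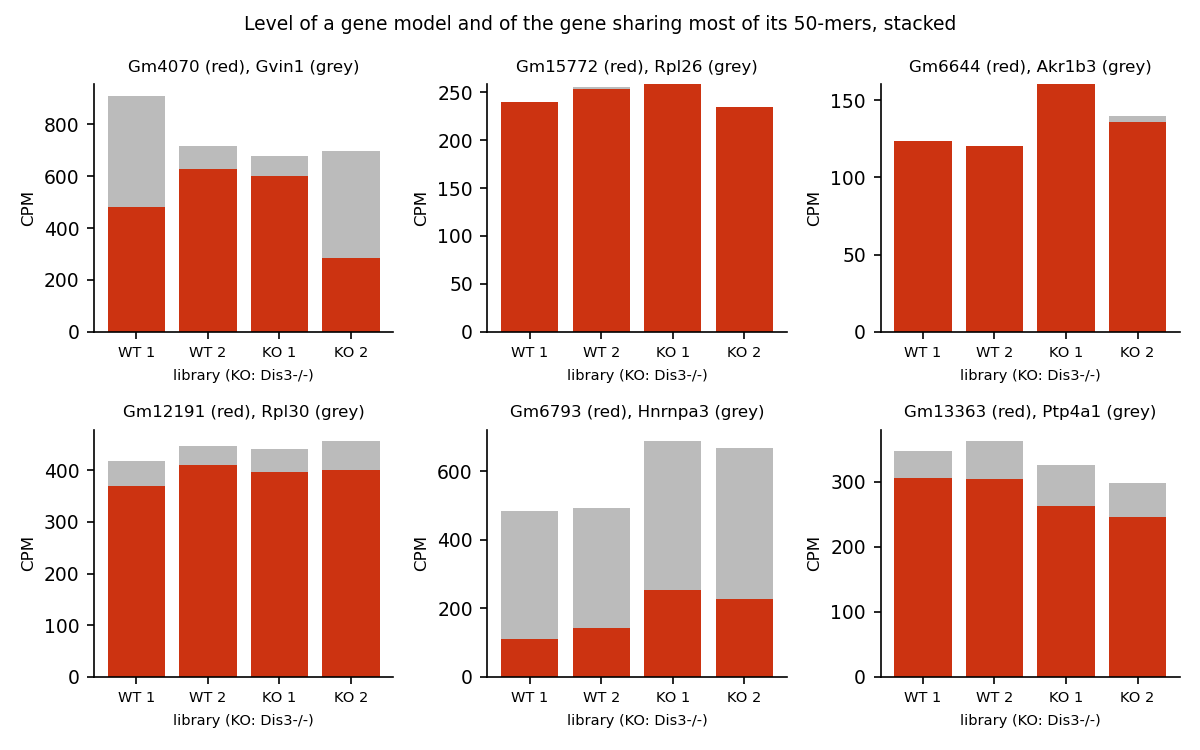
Stacked levels (CPM, axis from 0) in each library of 6 gene models (red) and of the gene sharing most of their 50-base stretches (grey). Gm4070 and Gvin1 trade places between libraries of the same genotype, Gm15772 and Gm6644 hold nearly all reads of their pair, and Gm6793 rises with its pair.

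Zinc finger gene models on chromosome 2 lay mostly above 0, though few passed the test. These young genes encode proteins with arrays of zinc fingers behind a KRAB domain, a class known for binding and silencing transposable elements. Between bases 175275125 and 177957386 of chromosome 2 lay 18 members, grouped after their values were seen, and 5 of them now carry Zfp names. A median of 91% of their 50-base stretches also occurs in other genes, so their reads were divided by estimate, and the 18 hold only 15 different sets of values. Gm14308, Gm14434 and Gm4724 had identical values, as did Gm14431 and Gm8898, and the model with no match in the annotation, Gm14430, repeated the values of the first 3. Of the 18, 3 rose and 0 fell. The called share was 16.7% at a median level of 12.7 CPM, beside 23% of all tested genes and 13.8% of all genes at 5 to 20 CPM. A total of 17 lay above 0, with a median log2 fold change of 0.318. On TPM values 15 lay above 0, 1 rose, and the median was 0.16 on log2(TPM + 1). Omitting wild-type replicate 1 or Dis3-/- replicate 1 put it at 0.52 or 0.55. The libraries did not overlap for 12 higher and 0 lower, beside 31.9% and 30.5% of all tested genes, and since reads are shared these are not 12 separate observations. Summed, the cluster held 242 and 213 CPM in wild-type and 275 and 333 CPM in Dis3-/- libraries, 1.34-fold higher, and wild-type replicate 2 was the lowest.

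The 3 that rose come from 2 sets of near-copies. Gm6182 (now 2210418O10Rik; chromosome 2, 176226565 to 176261872) held 13.3 and 9.92 against 20.3 and 22.7 CPM (0.88 ± 0.21, edgeR adjusted p = 0.00804). All of its 50-base stretches occur in Gm14296, which held 14.4 and 10.5 against 21.6 and 24.1 CPM (0.87 ± 0.21, edgeR adjusted p = 0.008), so the pair counts as 1 observation. Summed, it rose by 0.88 (edgeR adjusted p = 0.00145). Neither single model was called on TPM values (limma adjusted p = 0.058 to 0.0619) or without wild-type replicate 2 (0.68 and 0.66, edgeR adjusted p = 0.0501 and 0.0506). Gm14440 (chromosome 2, 175275125 to 175286805) held 21.0 and 16.2 against 27.1 and 38.5 CPM (0.81 ± 0.20, edgeR adjusted p = 0.00927), and lost its call on TPM values (limma adjusted p = 0.077) and when Dis3-/- replicate 2 was omitted (0.54, edgeR adjusted p = 0.105). Its near-copy Gm14288 held 3.37 and 6.69 against 9.75 and 9.83 CPM (0.98 ± 0.35, edgeR adjusted p = 0.0566; 1.56 and adjusted p = 0.0117 with wild-type replicate 2 omitted), and together they rose by 0.85 (edgeR adjusted p = 0.0017). Gm8923, now Zfp965, was the lowest of the cluster, at 1.48 and 3.43 against 5.26 and 6.05 CPM (1.21 ± 0.46, edgeR adjusted p = 0.0761), and passed when wild-type replicate 2 was omitted (1.96, edgeR adjusted p = 0.0341).

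**Figure D5:**
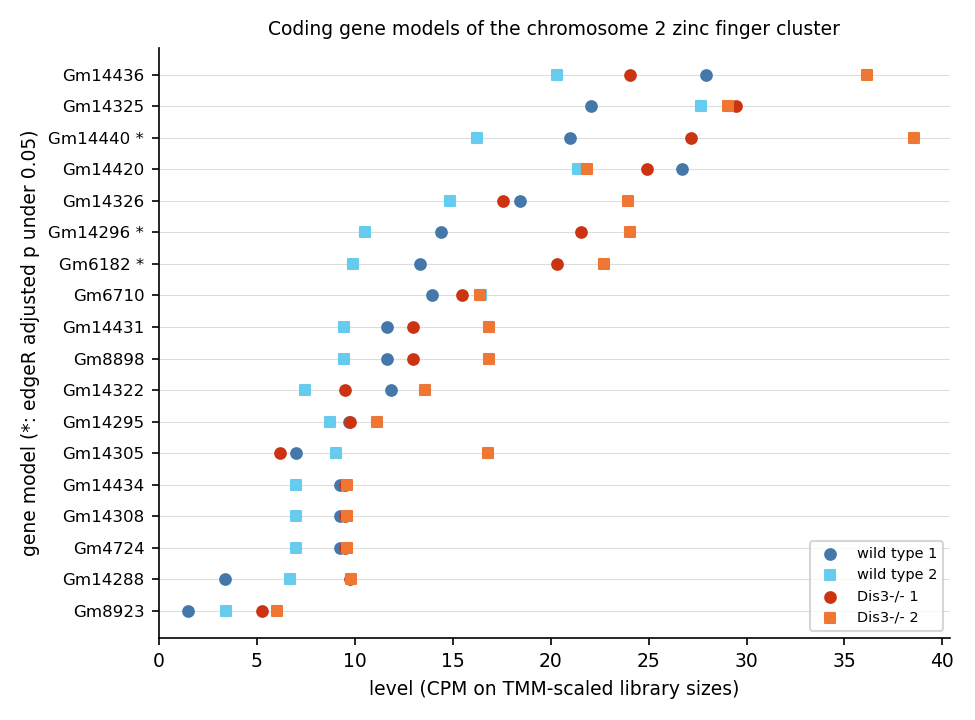
Levels in each library (CPM) of the 18 coding gene models of the chromosome 2 zinc finger cluster, ordered by mean level; asterisks mark the 3 that passed the test. Wild-type points lie to the left of Dis3-/- points in 12 models, and rows with the same 4 values are models with identical entries.

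A second cluster of zinc finger models, 6 members between bases 145585172 and 147812229 of chromosome 4, had 1 that rose and 0 that fell, with 3 above 0 and a summed level of 139 and 150 against 163 and 146 CPM. Its called share was 16.7%, beside 23% of all tested genes. The member that rose was Gm13152, now Zfp982 (chromosome 4, 147443114 to 147516064). It stood at 8.83 and 11.6 CPM in wild-type and at 27.9 and 17.4 CPM in Dis3-/- libraries, without overlap (1.15 ± 0.25, edgeR adjusted p = 0.00465). Only 11.9% of its 50-base stretches occur elsewhere, less than for any other member of the 2 clusters.

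Interferon-inducible GTPase models had 1 call among 9 members (11.1%) in this comparison of pIpC-treated groups, beside 23% of all tested genes, and several varied more between replicates than between genotypes. Proteins of this class are induced by interferon and act against intracellular pathogens. The 9 members, grouped after their values were seen, had 0 higher and 1 lower with 3 above 0 and 6 below and a median log2 fold change of -0.08. Omitting wild-type replicate 1 turned that median to 0.24, with 5 above 0, 2 higher and 0 lower. They summed to 1138 and 1133 CPM in wild-type and to 1099 and 842 CPM in Dis3-/- libraries. Promoter windows of 3 of them, picked by name and cut as above, are shown, and those of the other members are not described. Capitals mark, on either strand, a pair of GAAA boxes with any 2 bases between them, the core of interferon-responsive elements. In Gm1966 the match lies in a stretch of T and C, and a match is again only a description of the letters. The windows are chr11:58183593-58183892 (plus strand; Gm12250), chr11:48927133-48927432 (minus strand; Gm12185) and chr7:106644596-106644895 (minus strand; Gm1966).
Gm12250: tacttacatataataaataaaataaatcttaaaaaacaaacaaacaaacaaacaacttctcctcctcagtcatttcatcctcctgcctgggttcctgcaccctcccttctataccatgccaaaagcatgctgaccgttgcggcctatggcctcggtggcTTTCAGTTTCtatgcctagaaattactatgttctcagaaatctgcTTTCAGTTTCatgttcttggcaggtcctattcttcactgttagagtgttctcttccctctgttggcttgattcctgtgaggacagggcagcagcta
Gm12185: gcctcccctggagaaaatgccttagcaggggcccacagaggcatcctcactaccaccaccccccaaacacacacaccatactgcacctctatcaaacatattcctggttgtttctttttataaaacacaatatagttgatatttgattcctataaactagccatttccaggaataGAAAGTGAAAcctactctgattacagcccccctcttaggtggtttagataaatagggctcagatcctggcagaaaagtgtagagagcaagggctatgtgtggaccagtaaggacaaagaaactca
Gm1966: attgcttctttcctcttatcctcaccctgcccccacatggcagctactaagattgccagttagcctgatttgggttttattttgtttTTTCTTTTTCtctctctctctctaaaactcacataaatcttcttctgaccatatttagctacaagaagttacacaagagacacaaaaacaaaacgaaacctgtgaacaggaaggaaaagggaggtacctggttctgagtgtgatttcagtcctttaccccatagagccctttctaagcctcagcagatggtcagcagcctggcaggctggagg

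The paired boxes occurred 2 times in the first window and 1 time in each of the others, in 8 of the 109 windows of members (7.34%) and in 3.44% of all 32851 windows. Gm12250, known as Irgb10, held 45.8 and 27.3 against 43.3 and 38.0 CPM (0.14 ± 0.19, edgeR adjusted p = 0.637). Gm12185 held 38.8 and 26.8 against 35.9 and 43.5 CPM (0.27 ± 0.17, edgeR adjusted p = 0.296). In both, wild-type replicate 2 was the lowest library, and without wild-type replicate 1, so that the Dis3-/- libraries alone supply the spread, both were at 0.57 (edgeR adjusted p = 0.0336 and 0.0406). Gm4951 (40.6 and 27.6 against 25.0 and 40.0 CPM) and Gm4841 (9.22 and 6.35 against 5.89 and 14.5 CPM) overlapped between genotypes too, and Gm4841 passed the test when Dis3-/- replicate 1 was omitted (0.90, edgeR adjusted p = 0.0394).

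Gm1966, a model of the very large interferon-inducible GTPases (chromosome 7, 106595549 to 106644646), was the 1 that fell. It stood at 184 and 144 CPM in wild-type and at 111 and 137 CPM in Dis3-/- libraries, and wild-type replicate 2 lay close to Dis3-/- replicate 2. The value of -0.40 ± 0.12 (edgeR adjusted p = 0.0266) ended as a call when replicate 1 of wild type (-0.21) or of Dis3-/- (-0.26) was omitted (edgeR adjusted p = 0.265 and 0.088), under robust empirical Bayes (0.0596) and on TPM values (limma adjusted p = 0.0699). Its neighbours of the same family, Gm4759 (195 and 173 against 163 and 171 CPM), Gm8979 (9.46 and 9.96 against 9.53 and 8.60 CPM) and Gm17757 (132 and 88.1 against 105 and 104 CPM), were not called, though Gm17757 passed with wild-type replicate 2 omitted (-0.34, edgeR adjusted p = 0.0382).

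Gm4070 had the highest mean CPM of all members, and its values moved opposite to those of its near-copy. It held 483 and 630 CPM in wild-type and 600 and 286 CPM in Dis3-/- libraries (-0.33 ± 0.22, edgeR adjusted p = 0.319). Its near-copy Gvin1, which shares 95.0% of the 50-base stretches, held 425 and 84.9 against 76.0 and 413 CPM. The model took 53.2% and 88.1% of the pair's reads in the wild-type libraries, and 88.8% and 41.0% in those of Dis3-/- cells. Summed, the pair held 908 and 715 against 676 and 699 CPM (-0.24, edgeR adjusted p = 0.0684). With Dis3-/- replicate 1 omitted, so that the wild-type libraries alone supply the spread, the value of Gm4070 was -0.96, and omitting Dis3-/- replicate 2 gave 0.11. With no filter on low counts Gm4070 passed at the same -0.33 (edgeR adjusted p = 4.84e-05), though its libraries overlapped between genotypes. The reason for the smaller p was not tested.

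Coding models outside these families included genes that have since been named. Over all classes and families, 27 members have another current symbol in RefSeq. Of these 3 rose, the long noncoding Gm11974 and the zinc finger models Gm13152 and Gm6182, and 0 fell. The called share of the 27 was 11.1% at a median level of 18.7 CPM, beside 23% of all tested genes and 13.8% of all genes at 5 to 20 CPM. Gm15800, now Hectd4, encodes a very large protein of the HECT ubiquitin ligase class. It held 346 and 355 against 302 and 309 CPM, without overlap (-0.20 ± 0.07, edgeR adjusted p = 0.0623), and passed with robust empirical Bayes (edgeR adjusted p = 0.0454). Gm608, now Usf3, encodes a helix-loop-helix protein and held 220 and 230 against 201 and 200 CPM (-0.17 ± 0.08, edgeR adjusted p = 0.135). Gm10094, now Sap18b, shares 98.8% of its 50-base stretches with Sap18. Sap18 held 36.6 and 31.8 against 35.5 and 37.7 CPM (0.10 ± 0.14, edgeR adjusted p = 0.662). Gm10094 took 27.0% to 40.4% of the pair's reads. It held 13.5 and 16.8 against 24.1 and 20.6 CPM, without overlap (0.56 ± 0.19, edgeR adjusted p = 0.0522). It passed under 5 of the 12 alternatives, among them log2(TPM + 1) (0.45, limma adjusted p = 0.0367) and omitting wild-type replicate 2 (0.72, edgeR adjusted p = 0.037). Gm29766, now Fbrsl1, held 85.3 and 75.0 against 67.8 and 79.9 CPM, and Gm17296, now Tarbp1, the gene of an RNA methyltransferase, 63.7 and 59.1 against 76.2 and 52.1 CPM. Both overlapped between genotypes.

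Gm3435 and Gm973 were the other coding models that changed. Gm3435 (chromosome 17, 15009840 to 15022449) held 7.65 and 4.29 against 14.3 and 17.1 CPM (1.38 ± 0.29, edgeR adjusted p = 0.00349). Its near-copy 9030025P20Rik shares 80.7% of its 50-base stretches and held 10.4 and 8.26 against 13.1 and 17.4 CPM (0.71 ± 0.24, edgeR adjusted p = 0.0494). The summed pair rose by 1.02 (edgeR adjusted p = 0.00229). Gm973 (chromosome 1, 59516264 to 59636417) had whole counts in all libraries and shares no 50-base stretch with another gene. It fell from 24.8 and 17.3 to 7.74 and 11.6 CPM (-1.12 ± 0.25, edgeR adjusted p = 0.00519), and without wild-type replicate 1 the value was -0.83 (edgeR adjusted p = 0.0516).

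Read-through models, which join the exons of neighbouring genes into 1 transcript, had 0 of 4 members called, where 23% of all tested genes were called. Their median level was 9.60 CPM, and of all genes at 5 to 20 CPM 13.8% were called. Transcripts that run past the end of their gene are known substrates of nuclear RNA surveillance. Gm20605, which joins Lrch4 and Sap25, held 68.7 and 54.6 against 65.6 and 81.1 CPM (0.25 ± 0.13, edgeR adjusted p = 0.2). It passed without Dis3-/- replicate 1 (0.40, edgeR adjusted p = 0.0278). Gm21992, which joins Rbm14 and Rbm4, held 7.42 and 4.05 against 2.96 and 3.10 CPM, the lowest values in both Dis3-/- libraries (-0.90 ± 0.43, edgeR adjusted p = 0.149). Gm20604 (9.90 and 16.2 against 13.8 and 17.0 CPM) and Gm28042 (4.59 and 6.22 against 5.56 and 3.39 CPM) overlapped between genotypes. All 4 share 54.5% to 96.4% of their 50-base stretches with other genes, mainly those they join.

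The models with the smallest changes among those of at least 10 CPM were Gm6548, Gm15772, Gm5148 and Gm3893. Gm6548, which lies in the double-stranded RNA sensor gene Eif2ak2, held 37.2 and 33.9 against 35.6 and 35.5 CPM (0.00 ± 0.14, edgeR adjusted p = 0.993). Gm5148 held 23.2 and 19.1 against 23.6 and 18.2 CPM (-0.02 ± 0.19, edgeR adjusted p = 0.958), and Gm3893 16.9 and 13.1 against 11.5 and 17.9 CPM (-0.03 ± 0.24, edgeR adjusted p = 0.952). A p that misses the threshold does not show equal levels. Of the 24 calls, 8 held in all 12 refits by another setting, though of these only Gm3435 and Gm6793 had a closest gene to be summed with: the rises of Gm2518, Gm4890, Gm9958, Gm15760, Gm3435, Gm13152 and Gm6793 and the fall of Gm17066. The 55 members whose deposited counts were whole, to the last decimal given, in all libraries had 6 higher and 1 lower. The called share was 12.7% at a median level of 6.65 CPM, beside 23% of all tested genes and 13.8% of all genes at 5 to 20 CPM. These calls were the rises of Gm4890, Gm9958, Gm11423, Gm15760, Gm6225 and Gm11974, and the fall of Gm973.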

How the data were processed

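RNA of 100 sorted cells per library was measured in 2 wild-type and 2 Dis3-/- libraries, grouped by the labels' genotype. The deposited expected counts were made by the authors, and per the submitters' processing notes the tools were Trim Galore 0.6.6, STAR 2.7.8a and RSEM 1.3.3 with mm10. The gene annotation and any strand option behind them are likewise not given in the sources used here. The deposited TPM values, divided by transcript length by the authors, were used for levels between genes and for an alternative test. RSEM estimates how reads matching several genes divide, so 92.3% to 92.6% of values per library were whole.

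Expected counts were rounded for edgeR's quasi-likelihood test (version 4.0.16, R 4.3.3; filterByExpr at a minimum count of 10 and total of 15, TMM, Benjamini-Hochberg over 12244 genes, threshold 0.05). SE is the log2 fold change divided by the square root of F. Alternatives were DESeq2 1.42.0, RLE size factors, no filter, limma 3.58.1 on log2(TPM + 1) or log2(TPM + 0.1), robust empirical Bayes, leaving out each library, a replicate block, and counting only members with whole counts. Where a library is left out, the lone library of its genotype is assumed to vary like those of the other genotype, which alone supply the spread. Summing each model with its closest gene was chosen after seeing the data. The fit was tested on simulated data.

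Members and lists were chosen with earlier results of these data known. Named by rule were Dis3, up to 12 called members with the largest rise and up to 12 with the largest fall among those without overlap, the 6 with the highest mean CPM, the 4 with the smallest change from 10 CPM upward, the 4 just inside and 4 just outside the total of 60, and genes overlapping them or within 1 kb. Other called members, family groups and near-copies were named after their values were seen. The labels do not say that the libraries came from separate mice, though the design text gives 2 mice, so p-values measure only the spread between these samples. Same-numbered libraries did not deviate together (correlation -0.0283 over tested genes), and no pair of libraries held the same values. Coordinates and classes are from RefSeq for GRCm38.p6, strands and transcripts from GENCODE M21. Of 162 symbols 132 matched directly, 27 through an older symbol and 2 in GENCODE alone. Promoter windows matched 101 members.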

Additional observations from a re-analysis of the deposited data

How the results depend on the processing

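The count of members that rose, 17, was 13 by DESeq2, 15 with the replicate block and 13 to 20 when 1 library was left out. The count that fell, 7, was 4 by DESeq2, 12 with no filter, 13 on log2(TPM + 1), 11 on log2(TPM + 0.1), 8 with the replicate block and 5 to 9 when 1 library was left out. With no filter 23 members rose, and on either TPM scale 16. Robust empirical Bayes gave 20 that rose and 10 that fell, and summing with the closest gene 20 and 5. Among members with whole counts alone, 6 rose and 1 fell. Of all tested genes 1561 rose and 1250 fell, beside 1000 and 742 by DESeq2, 1463 and 1151 with the replicate block, and 1226 to 1319 and 886 to 1060 when 1 library was left out. On log2(TPM + 1) the balance of all tested genes turned, with 1076 that rose and 1480 that fell. The replicate numbers pair no samples in the labels.

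Where the sign of a single value turned, the main value was mostly near 0, and the cause was not tested. On log2(TPM + 1) and log2(TPM + 0.1) the log2 fold changes were -0.00726 and -0.00731 for Ankrd17, -0.0634 and -0.0634 for Gm12191, -0.107 and -0.109 for Gm6548, -0.0669 and -0.067 for H3f3a, -0.0281 and -0.0351 for Mmaa and -0.0813 and -0.0824 for Rbm26. Gm6548 was -0.00251 by DESeq2 and -0.00297 with RLE size factors. Summed with the closest gene, Gm12657 was 0.0183, Gm28042 0.0973 and Ptp4a1 -0.188. When each library in turn was left out, the log2 fold changes ranged from -0.0426 to 0.106 for Gm12191, -0.177 to 0.573 for Gm12250, -0.0695 to 0.0682 for Gm15772, -0.34 to 0.246 for Gm17757, -0.067 to 0.633 for Gm20604, -0.641 to 0.047 for Gm28042, -0.391 to 0.26 for Gm3893, -0.955 to 0.114 for Gm4070, -0.403 to 0.898 for Gm4841. Further ranges were -0.455 to 0.238 for Gm4951, -0.206 to 0.158 for Gm5148, -0.0651 to 0.0746 for Gm6548, -1.75 to 1.53 for Gvin1, -0.0183 to 0.105 for H3f3a, -0.0346 to 0.0188 for Lig3, -0.242 to 0.401 for Mmaa, -0.0646 to 0.126 for Rbm26 and -0.349 to 0.0902 for Zfp653.

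Limits: with 2 libraries a genotype and 100 cells a library, models under 5 CPM rest on few counts. Values of near-copies rest on an estimated division of reads. Of the 24 called members 8 kept their call in all 12 refits. With 1 library left out, the spread comes from the other genotype alone.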
